A study of Mus musculus with 8 samples.

Results

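The 10 genes described here encode proteins that build, bind or destabilize the microtubules of neurons: the tubulins Tubb3 and Tubb2b, the microtubule-associated proteins Map2, Mapt, Map1b and Dcx, and the stathmins Stmn1, Stmn2, Stmn3 and Stmn4. They were chosen by name, as a functional group, with earlier results of these data known. Each gene was followed through all probe-sets (groups of short probes to 1 transcript on the array) that carried its symbol and no other in the probe annotation of the platform. These were 24 of 45037 probe-sets, for 10 of 18193 genes with such a probe-set. Probe-sets were ranked by their log2 signal averaged across arrays, and those at or above the 60th percentile, a signal of 31.0, were analysed. Of the 24 probe-sets 18 passed, at least 1 for each gene.

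Microtubules are hollow polymers of alpha- and beta-tubulin that carry transport in axons and dendrites and push the nucleus forward during migration. Tubb3 is the beta-tubulin found almost only in neurons, and its protein is the antigen of a widely used neuronal antibody. Microtubule-associated proteins bind along the polymer and stabilize it, whereas stathmins hold free tubulin dimers and favour disassembly. In the postnatal cerebellum granule cell precursors divide at the surface, leave the cell cycle, grow axons and migrate inwards. Thyroid hormone is needed for this sequence to run on time.

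The cells were primary cultures of dissociated cerebella from wild-type mice, pooled from several animals and held in serum-free medium for 48 h before treatment. Pup age is P4 to P7 in the sample annotation, while the published protocol gives younger newborns. Cultures then received 0.1 µM T3 (triiodothyronine, the active thyroid hormone) or nothing for 6, 16, 24 or 48 h. By the published protocol, the T3 and untreated cultures of a time point came from one preparation of cells. Each of the 8 conditions was hybridized to 1 Affymetrix Mouse Genome 430 2.0 array. No condition has a replicate of its own, and whether the time points shared a preparation is not given in the sources used here. In such bulk RNA fewer cells of a type and less RNA per cell cannot be told apart either.

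Signals are MAS 5 intensities that were scaled to a mean of 100 on each array, so they can be set side by side between arrays for 1 probe-set but not between probe-sets. All 11 neuronal marker genes examined were above the signal threshold, and so were 9 of 10 markers of astrocytes and Bergmann glia, 5 of 9 of the oligodendrocyte lineage, 6 of 9 of microglia and 9 of 10 of vascular and meningeal cells. The untreated 24 h array stood apart from the others. Its mean centred log2 signal for the astrocyte and Bergmann glia markers was 1.61, against -0.36 to -0.09 on the other 7 arrays. Aqp4, the water channel of astrocytes, read 1053.9 there and 45.8 on the T3 array of the same hours. The ratio of 3′ to 5′ signal, a sign of RNA integrity and amplification, lay between 1.69 and 2.55 for Actb, and the untreated 24 h array had the lowest value. For Gapdh it lay between 1.61 and 2.95, the untreated 24 h array was in the middle (2.46), and both 48 h arrays (1.74 without and 1.61 with T3) and the T3 16 h array (1.76) were lowest.

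Promoter windows of 300 bases were found for 5 of the 10 genes (Tubb3, Dcx, Map1b, Map2 and Stmn3). They reach from 250 bases before to 50 bases after an annotated gene start in RefSeq on GRCm38.p6. The windows of Tubb3, Dcx and Map1b are printed because, of these 5 genes, Tubb3 and Dcx had the largest and Map1b the smallest difference between T3 and untreated cultures at 24 h. Tubb3 lies on the plus strand (chr8:123411303-123411602), Dcx on the minus strand (chrX:143933075-143933374, the first of 2 annotated windows) and Map1b on the minus strand (chr13:99516553-99516852). Each is written 5′ to 3′ in the direction of the gene. Capitals mark matches to a GC box, an E-box or a TATA box, whose letters are given after the sequences.
Tubb3: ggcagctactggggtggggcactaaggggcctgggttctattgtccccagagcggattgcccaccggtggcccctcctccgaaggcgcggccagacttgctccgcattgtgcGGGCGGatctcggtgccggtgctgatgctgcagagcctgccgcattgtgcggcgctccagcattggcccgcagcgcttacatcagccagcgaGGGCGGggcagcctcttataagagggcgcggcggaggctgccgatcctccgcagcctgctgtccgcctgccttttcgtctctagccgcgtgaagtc
Dcx: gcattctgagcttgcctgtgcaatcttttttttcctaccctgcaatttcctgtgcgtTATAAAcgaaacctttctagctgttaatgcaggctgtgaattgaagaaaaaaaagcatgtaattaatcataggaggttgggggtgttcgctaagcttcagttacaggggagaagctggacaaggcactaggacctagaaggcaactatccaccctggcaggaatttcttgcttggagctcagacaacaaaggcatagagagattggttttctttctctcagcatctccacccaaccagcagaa
Map1b: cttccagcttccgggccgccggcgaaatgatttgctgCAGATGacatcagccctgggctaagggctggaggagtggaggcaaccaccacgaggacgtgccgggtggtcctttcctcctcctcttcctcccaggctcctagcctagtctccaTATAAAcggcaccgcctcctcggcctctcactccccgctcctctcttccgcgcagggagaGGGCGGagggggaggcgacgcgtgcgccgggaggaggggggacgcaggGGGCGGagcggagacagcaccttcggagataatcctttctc

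The 3 windows were unlike in composition. Tubb3 had 67.3% G and C with 26 CpG dinucleotides and Map1b 65.7% with 23, whereas Dcx had 44.7% with 3. The medians over all 32851 windows were 52.7% and 7. The 5 motifs were searched on both strands, and their matches did not overlap in the windows of these genes. The GC box GGGCGG was present for Tubb3, Map1b and Map2 and in 35.7% of all windows. The TATA box TATAAA was present for Map1b (at -99 from the gene start) and for Dcx, against 13.6% of all windows. Both windows of Dcx overlap and hold the same match, at -193 and -98 from their gene starts. The E-box CAGATG was present for Map1b and Stmn3, against 17.2%. AGGTCA, the core hexamer bound by thyroid hormone receptors, and CAGCTG, another E-box, each occurred in 16.3% of all windows and in 0 of the 6 windows of these genes. A match is a string of letters and not a shown binding site, and a missing one covers only these windows.

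By their brightest probe-sets, 9 of the 10 genes were higher in every 6 and 24 h culture than in any 16 and 48 h culture, the exception being Stmn1. The ranges of T3 and untreated cultures overlapped for all 10. For each gene the brightest probe-set is described first. The 4 values of a treatment are given in the order 6, 16, 24 and 48 h.

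Of the tubulins, Tubb3 had the wider range. Its signal was 415, 114, 1019.9 and 49.3 in untreated cultures. In T3 cultures it was 460.4, 153, 323 and 45.0. Both 48 h arrays lay below the other 6, both 16 h arrays came next, and the untreated 24 h array was the highest by more than a factor of 2. Tubb2b, a beta-tubulin of young neurons whose mutation disturbs neuronal migration, varied less. It read 3140.2, 2397, 2971 and 1353 without T3. With T3 it read 3095, 2710.3, 2989.8 and 1599.6. The 6 and 24 h arrays were again above the 16 and 48 h arrays, and the 24 h pair was nearly equal. A further probe-set that carries the symbols of Tubb2b and of the pseudogene Tubb2a-ps2 was not used for this reason.

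Map2 marks the dendrites and cell body of neurons. Its signal was 1391, 448, 1656 and 171 in untreated cultures. With T3 the values were 1254, 503, 945 and 229.5. The highest array was untreated at 24 h and the lowest untreated at 48 h, and the treated and untreated ranges overlapped. Mapt encodes tau, which binds microtubules mainly in axons. It read 484, 173, 877 and 63.0 without T3. The treated cultures read 485, 184, 609 and 121. The 2 cultures were almost equal at 6 and 16 h and parted in opposite directions afterwards. Map1b, among the first microtubule-associated proteins to appear in growing axons, read 592, 407, 803 and 271 in untreated cultures. In T3 cultures it read 621, 400.1, 558 and 212. Its T3 array was the lower one at both 24 and 48 h, which among the other genes held only for Tubb3 and Stmn1 by the brightest probe-set.

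Dcx encodes doublecortin, a protein of migrating immature neurons. Its untreated signals were 1124, 311, 2098 and 111. With T3 they were 917, 315, 674 and 153. The 16 h pair was nearly equal, and at 24 h the untreated array was 3.11 times the T3 array.

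Stmn1 encodes stathmin itself, which is found in dividing cells as well as neurons. Its brightest probe-set read 4046, 3144, 3777 and 2263 without T3. Treated cultures gave 3918, 3259, 3187 and 2236. Among the brightest probe-sets of the 10 genes this one had the narrowest range, while the second probe-set of Stmn1 ran from 24.7 to 392.2. Stmn2, which encodes SCG10 of growth cones, read 1634, 336, 2329 and 138 in untreated cultures. In T3 cultures it read 1436, 475, 894 and 299. Treated cultures were lower at 24 h and higher at 48 h, and the untreated cultures spanned the wider range. Stmn3, which encodes the neuronal stathmin SCLIP, read 2904, 1426, 3158 and 480.1 without T3. With T3 it read 2794, 1443, 1852 and 696. Here too the T3 array was below its partner at 24 h and above it at 48 h. Stmn4, which encodes the neuronal stathmin RB3, read 934, 269.5, 1118 and 88.8 without hormone. With hormone it read 856, 272, 1445 and 133. At 24 h the T3 array of Stmn4 was 1.29 times the untreated one, the highest such ratio of the 10 brightest probe-sets.

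**Figure D1:**
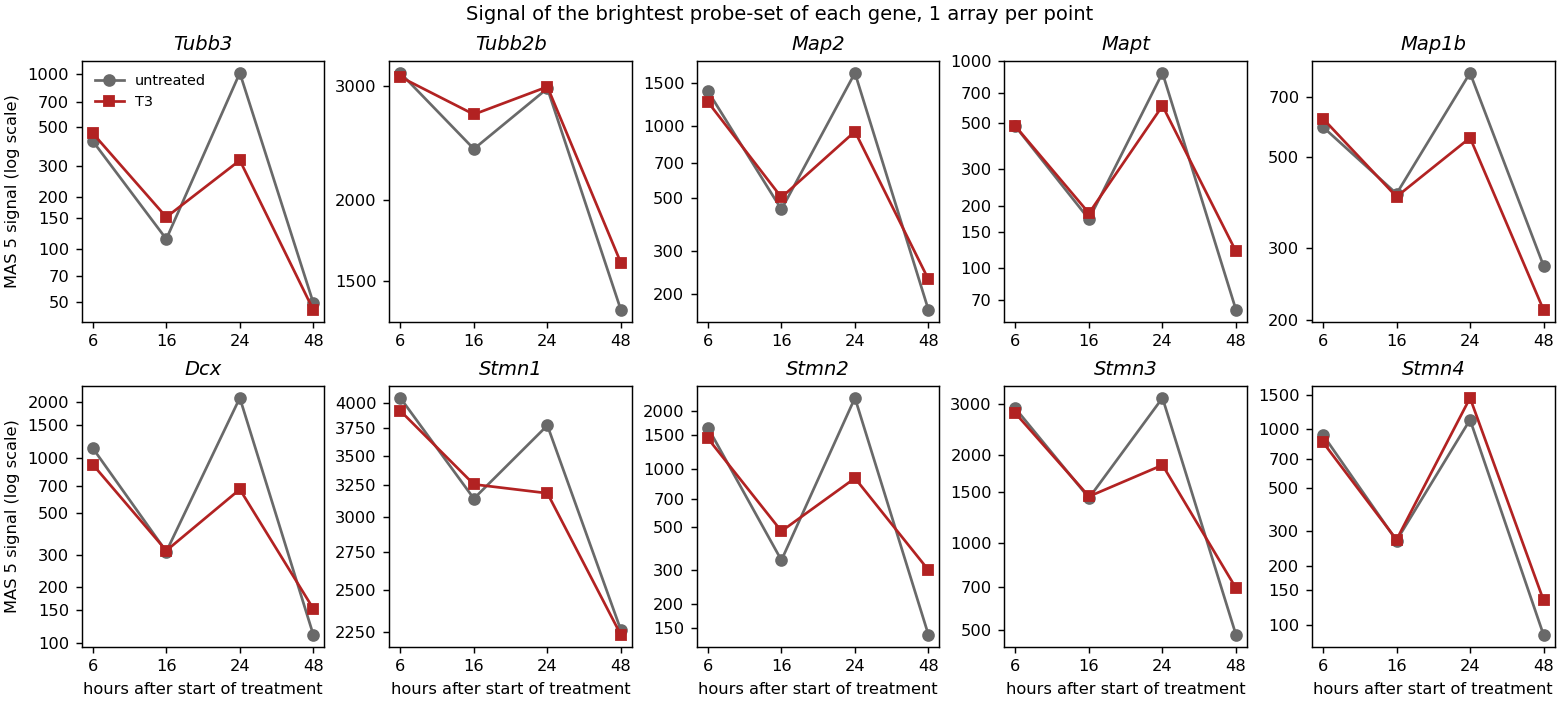
MAS 5 signal (log axis) of the brightest probe-set of each of the 10 genes against the hours after treatment began, with 1 array per point, circles for untreated and squares for T3 cultures. All 10 panels have their lowest point at 48 h, and 7 of 10 have their highest at 24 h in the untreated culture.

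Across the 18 probe-sets the shape was shared. The lowest array was one of the 48 h arrays for 18 of 18, and the untreated 48 h array for 14. The highest array was the untreated 24 h array for 12. How many of all probe-sets had the same lowest or highest array was not counted, so these counts have no background. For 16 of 18 probe-sets all 6 and 24 h arrays were above all 16 and 48 h arrays, against 15.1% of all 18015 probe-sets analysed. The exceptions were the second probe-set of Map2, which read 40.8 at 24 h without T3, and the bright probe-set of Stmn1. The 6 probe-sets below the threshold, whose signals lay between 1.1 and 81, entered only the alternatives without a filter. They comprise 2 each for Map2 and Dcx and 1 each for Mapt and Map1b. That of Mapt, with a mean log2 signal of 4.94, missed the threshold narrowly.

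After centring each gene on its own mean, the mean of the 10 genes was 0.88, -0.44, 1.33 and -1.63 (log2) in untreated cultures. In T3 cultures it was 0.81, -0.30, 0.61 and -1.25. Between any 2 of the genes Pearson's r over the 8 arrays was 0.843 to 0.988, with a median of 0.945 over 45 pairs. These are descriptions over 8 arrays from 4 time points, where both cultures of a time point share their cells. Map2 lay closest to the mean of the 10 (r = 0.998), while Stmn1 (0.927) and Tubb2b (0.929) lay farthest.

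The change with the hours was tested with limma on all 18015 probe-sets, as a log2 slope per doubling of the hours, in which time points entered as random blocks because both cultures of a time point share their cells. All 18 slopes of the 10 genes were below 0, from -0.92 to -0.25 with a median of -0.64, and the median of all probe-sets was -0.03. None of the 18 (0) passed an adjusted p of 0.05 (Benjamini-Hochberg), and 8 had an unadjusted p below it. The adjusted p ranged from 0.0739 for Stmn1 to 0.380 for the third probe-set of Mapt. In all, 0.422% of probe-sets fell under this test. The slope was -0.85 ± 0.43 (moderated SE, 8 arrays) for Tubb3, -0.79 ± 0.39 for Dcx and -0.25 ± 0.06 for the brightest probe-set of Stmn1. The second probe-set of Stmn1 had a slope of -0.89 ± 0.37, and the mean of both gave -0.57.

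The number of calls turned on the 24 h arrays, and the slopes on the 48 h arrays. When the 24 h arrays were left out, 18 of 18 probe-sets fell, with slopes of -1.07 to -0.28 and adjusted p of 0.00213 to 0.0156, and 14.2% of all probe-sets fell in that fit. Tubb3 then had a slope of -1.07 ± 0.10 (moderated SE, 6 arrays), Stmn4 of -1.01 ± 0.11 and Stmn1 of -0.28 ± 0.04. Both cultures of a time point share their cells, so the SE and p-values of this fit rest on few time points. A difference between cell preparations, if time points had their own, cannot be told apart from the hours. With all 8 arrays taken as independent 5 of 18 fell, against 8.56% of all probe-sets, among them the brightest probe-sets of Stmn1, Stmn3 and Tubb2b. With 1 mean per time point 0 of 18 passed. Leaving out any other single time point gave 0 of 18. Without the 48 h arrays the slopes of the brightest probe-sets lay between -0.29 (Stmn2) and 0.053 (Mapt), with -0.066 for Tubb3, -0.019 for Stmn4, -0.019 for Map1b and -0.13 for Dcx. In untreated cultures the 6 h signal was 8.42 times the 48 h signal for Tubb3, 10.2 times for Dcx and 1.79 times for Stmn1. In T3 cultures it was 10.2 times for Tubb3, 6.00 times for Dcx and 1.75 times for Stmn1.

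**Figure D2:**
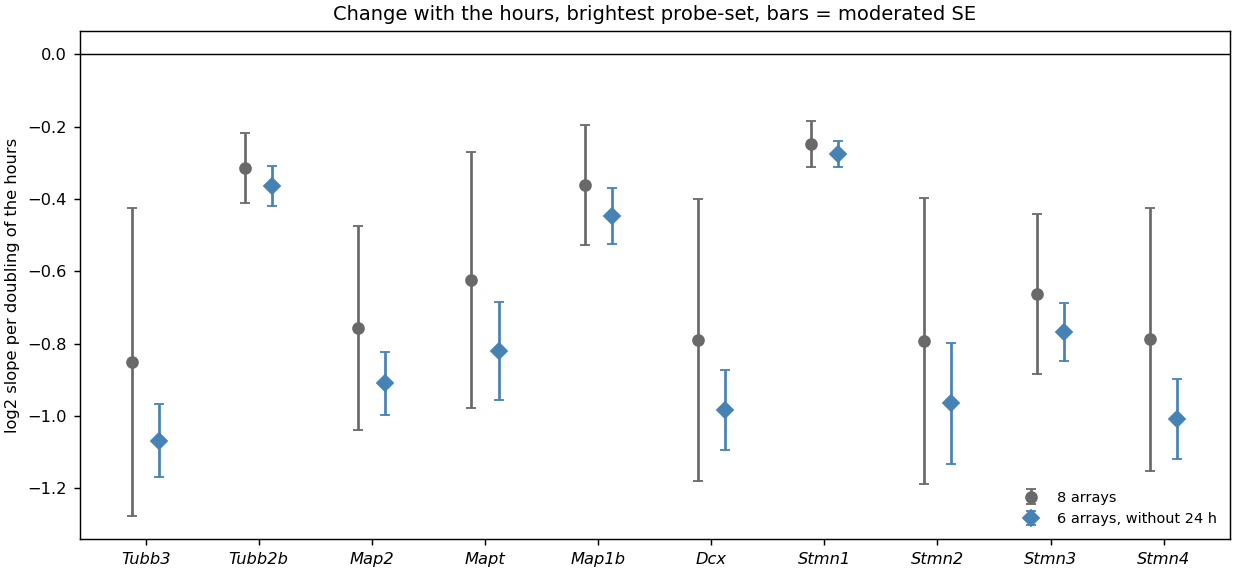
Log2 slope per doubling of the hours for the brightest probe-set of each of the 10 genes, from all 8 arrays (circles) and from the 6 arrays without the 24 h pair (diamonds), with moderated SE as bars. Every slope is below 0, and the SE of Tubb3 goes from 0.43 to 0.10 when the 24 h arrays are left out.

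The study asked which genes respond to T3 in these cells. At 6 h the 18 probe-sets differed little between T3 and untreated cultures, with a median log2 difference of -0.05 (range -0.29 to 0.36). At 16 h the median was 0.11 (range -0.08 to 0.50). At both times 0 of 18 were beyond 2-fold, in a setting where 0.328% of all probe-sets were lower and 0.527% higher at 6 h, and 0.305% lower and 0.433% higher at 16 h. At 24 h the median was -0.71, with 14 of 18 below 0, and at 48 h it was 0.50, with 14 of 18 above 0. The medians of all 18015 probe-sets were within 0.05 of 0 at the 4 time points. Each of these is a difference between 1 array and 1 array and has no test.

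Beyond 2-fold at 24 h were 6 of 18 probe-sets, all lower with T3, where 5.16% of all probe-sets were lower and 3.67% higher. They were the only probe-set of Tubb3 (log2 difference -1.66), the brightest of Dcx (-1.64) and Stmn2 (-1.38), and dimmer ones of Stmn1 (-1.63), Stmn3 (-1.21) and Mapt (-1.12). The brightest probe-set of Stmn3 differed by -0.77, and that of Mapt by -0.53. Tubb2b (0.01) and Stmn4 (0.37) were not lower. In the same pair 7 of 9 astrocyte and Bergmann glia markers were below 0 (median -1.79, 6 beyond 2-fold), and 3 of 5 of the oligodendrocyte lineage (median -1.58, 3 beyond 2-fold). The others were Gja1 (0.14), Sox9 (0.03), Pdgfra (0.02) and Cspg4 (0.27). Log2 differences among the lower ones were -4.52 for Aqp4 and -2.51 for Slc1a3, the glutamate transporter of Bergmann glia and astrocytes, and -2.44 for Olig1, a transcription factor of the oligodendrocyte lineage. The part of this in the values of the 10 genes was not tested.

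At 48 h 2 of 18 probe-sets were beyond 2-fold, both higher with T3, where 0.833% of all probe-sets were higher and 0.344% lower. They were the brightest of Stmn2 (1.12) and the dimmer of Stmn1 (1.04). Mapt followed with 0.94, Stmn4 with 0.59, Stmn3 with 0.54 and Dcx with 0.47. Tubb3 (-0.13), Map1b (-0.36) and the bright probe-set of Stmn1 (-0.02) were not higher.

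**Figure D3:**
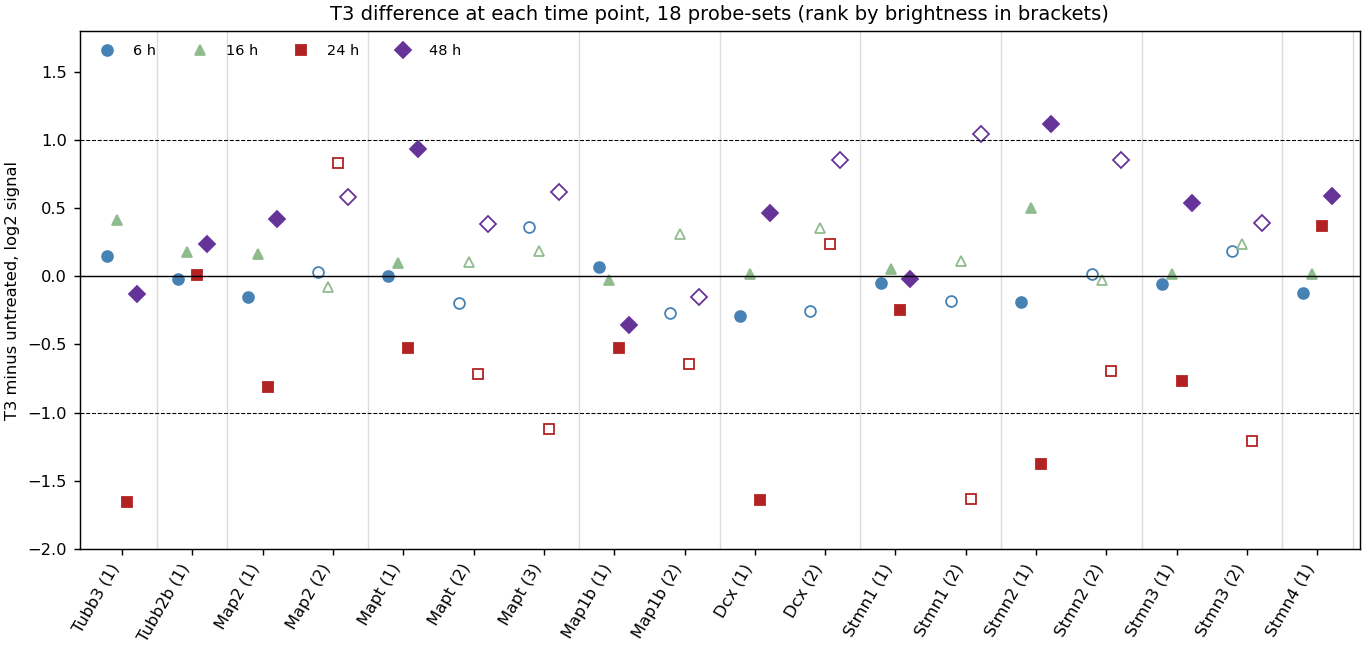
Log2 signal of the T3 array minus that of the untreated array for the 18 probe-sets at 6, 16, 24 and 48 h, with filled symbols for the brightest probe-set of a gene and open ones for the others, and dashed lines at 2-fold. Squares (24 h) lie below 0 for 14 of 18 probe-sets and diamonds (48 h) above 0 for 14 of 18.

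Over the 4 pairs together limma, with the time point as a block, called 0 of the 18 probe-sets for T3, and 0 had an unadjusted p below 0.05. The estimates ran from -0.36 to 0.34 and the adjusted p from 0.815 to 0.996. Of all 18015 probe-sets 0 (0%) were called and 985 had an unadjusted p below 0.05. Dcx had -0.36 ± 0.30 (moderated SE, 4 pairs, higher with T3 in 2 of 4), Tubb3 -0.31 ± 0.31 (2 of 4) and Stmn4 0.21 ± 0.14 (3 of 4). Without the 24 h pair the median of the 18 went from -0.07 to 0.16, with 15 of 18 above 0 and 0 called. A T3 effect that changes with the hours was called for 0 of 18 and for 0 (0%) of all probe-sets. The second probe-set of Dcx, 1 of 18, had an unadjusted p below 0.05, as did 245 of all 18015. As 1 array stands for each condition, these p-values measure the spread of the T3 differences between time points.

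Probe-sets of 1 gene did not always give the same direction. Among the 7 genes with several probe-sets above the threshold, all probe-sets had the same sign of the T3 difference for 2 genes at 6 h, 4 at 16 h, 5 at 24 h and 6 at 48 h. At 24 h the exceptions were Map2 and Dcx. The second probe-set of Map2 read 90.5, 66.0, 40.8 and 18.4 without T3. Its treated values were 92.5, 62.5, 72.6 and 27.5. At 24 h it was therefore higher with T3 (0.83), where the brightest was lower (-0.81). The second probe-set of Dcx read 198, 78.2, 195 and 30.3 in untreated cultures. In T3 cultures it read 166, 100, 230.0 and 54.9. Its 24 h difference was 0.24, against -1.64 for the brightest.

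For Stmn1 the second probe-set read 319, 99.5, 392 and 24.7 without T3. In T3 cultures the values were 281, 108, 127 and 50.9. It spanned a far wider range than the bright probe-set of the same gene, and its differences at 24 h (-1.63) and 48 h (1.04) were beyond 2-fold where those of the bright one were -0.24 and -0.02. The second probe-set of Stmn2 read 1114, 492, 1436 and 168 without T3. With T3 it read 1128, 484, 887 and 304. Both probe-sets of Stmn2 pointed the same way at 24 and 48 h. The second probe-set of Stmn3 read 925, 261, 959 and 95.8 untreated. Treated cultures read 1051, 307, 416 and 126. The remaining probe-sets of Mapt and Map1b were lower with T3 at 24 h, by -0.71 and -1.12 for Mapt and -0.64 for Map1b.

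**Figure D4:**
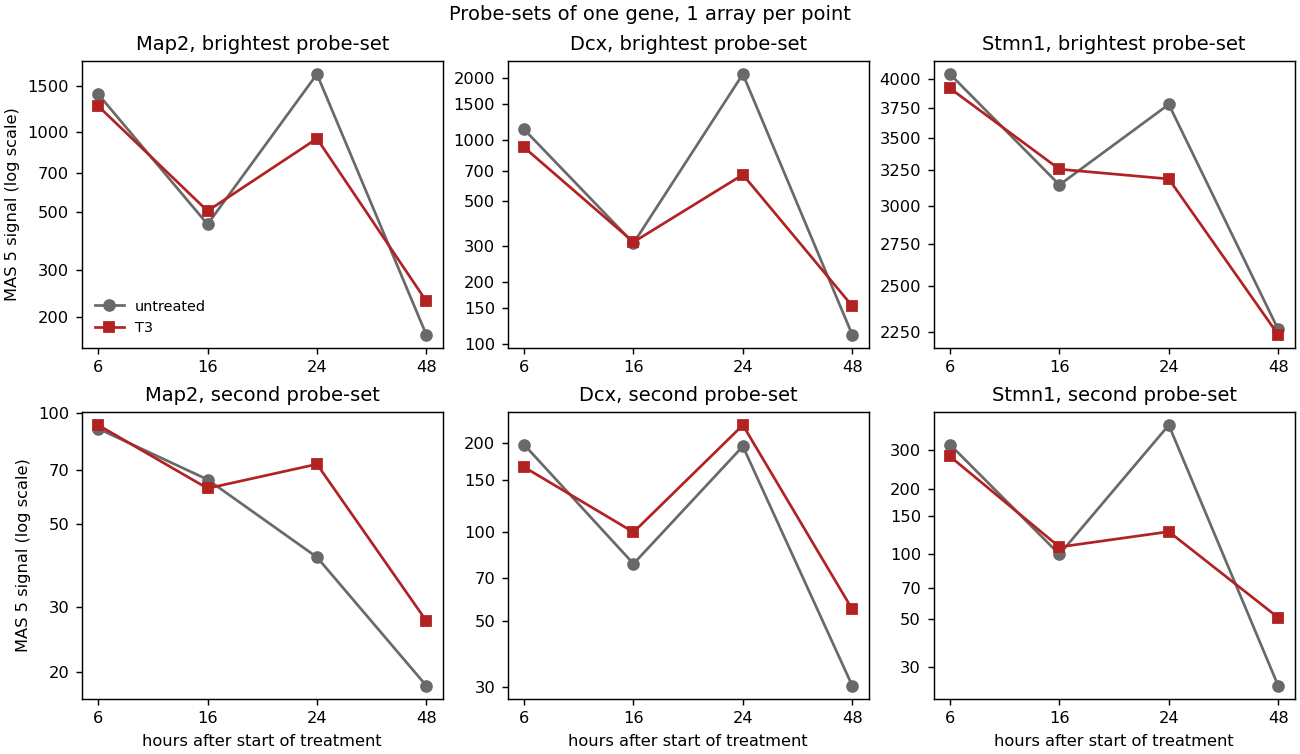
MAS 5 signal (log axis) of the brightest and the second probe-set of Map2, Dcx and Stmn1 against the hours after treatment began, with 1 array per point, circles for untreated and squares for T3 cultures. At 24 h the second probe-sets of Map2 and Dcx are higher with T3 and the brightest ones lower.

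Related genes were described by lists, with 1 probe-set for each gene. Of 11 neuronal markers the median log2 T3 difference was -0.43 at 24 h and 0.90 at 48 h. For the 10 genes these medians were -0.65 and 0.44 by the brightest probe-set. At 24 h 5 of the 11 markers were beyond 2-fold lower, against 5.16% of all probe-sets. At 48 h 4 of the 11 were beyond 2-fold higher, against 0.833%. Snap25, a protein of synaptic vesicle release, differed by 0.24 at 24 h and by 1.48 at 48 h. Nefl, the light neurofilament subunit, differed by -1.23 and 1.53. The mean centred signal of the neuronal markers was 1.05, -0.63, 1.53 and -1.92 in untreated cultures, the order in which the 10 genes also stood. With T3 it was 0.89, -0.52, 0.78 and -1.18. Without the 24 h arrays 10 of the 11 fell with the hours, against 14.2% of all probe-sets. With all arrays 0 did, against 0.422%.

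Other tubulins behaved less uniformly. Of 18 genes 14 had a probe-set of their own and 9 were above the threshold, with a median of -0.09 at 24 h. Tubb4a, a beta-tubulin best known from oligodendrocytes and neurons, had the lowest value (-1.30). Tubb6, a broadly expressed beta-tubulin, had the highest (0.75). Tubb6 read 163 at 6 h and 790 at 48 h in untreated cultures. With arrays taken as independent it rose with the hours, while Tubb5 and Tube1 fell, and with the time point as a block 0 of the 9 passed.

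Other microtubule-associated proteins, 30 of 36 above the threshold, had a median of -0.56 at 24 h. Of the 30, 7 were beyond 2-fold lower, where 5.16% of all probe-sets were. Nav1, a neuron navigator, had the lowest value (-1.50) and Tppp3, of the family that promotes tubulin polymerization, the highest (0.67). Without the 24 h arrays 15 of 30 fell with the hours, against 14.2% of all probe-sets, and 1, Map7, rose. Motors and regulators, 40 of 45, had a median of -0.33 at 24 h with 4 beyond 2-fold lower, against the same 5.16%. Cdk5r1, which encodes the p35 activator of Cdk5, had the lowest value (-1.58), and the kinesin subunit Kif3a the highest (0.95). Kif21b, a neuronal kinesin, was the only gene of these lists that fell with the hours over all 8 arrays with the block, with a slope of -0.89 ± 0.18 (moderated SE, adjusted p = 0.0474 in limma). Without the 6 h or the 48 h arrays, without a variance trend, with the hours in place of their log2 or with 1 mean per time point 0 of all probe-sets passed. At 48 h the medians of the 3 lists were -0.16, -0.02 and 0.00. In the T3 test over 4 pairs limma called 0 genes in each list, with 1, 2 and 1 at an unadjusted p below 0.05. Of all 18015 probe-sets 985 had such an unadjusted p.

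By their list means, markers of other cells also moved with the hours and the 24 h pair. The mean of the vascular and meningeal markers went from -1.34 at 6 h to 1.07 at 48 h in untreated cultures and from -1.80 to 1.14 with T3. At 16 and 24 h this mean was 0.51 and -0.16 without T3, and 0.27 and 0.31 with T3. The endothelial genes Cldn5 and Kdr departed from it. Their slopes with the time point as a block were -0.09 and 0.14, against a list median of 0.95. Granule cell precursor markers went from 0.99 to -1.15 and from 0.90 to -0.91. At 24 h the latter were 0.61 without T3 and -0.47 with it. The mean of the microglial markers was lowest at 24 h (-1.42 without and -2.08 with T3) and highest at 48 h (1.55 and 1.85). Tmem119 departed from this mean and was lowest at 6 h (15.4 without and 11.4 with T3, against 47 and 50.9 at 24 h). Its slope with the time point as a block was 1.23, against a list median of 0.06. On the 24 h T3 array the microglial signals ran from 3.5 (C1qa) to 62.1 (Csf1r), so this low mean rests partly on dim signals. How far the makeup of the cultures enters the values of the 10 genes was not tested.

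**Figure D5:**
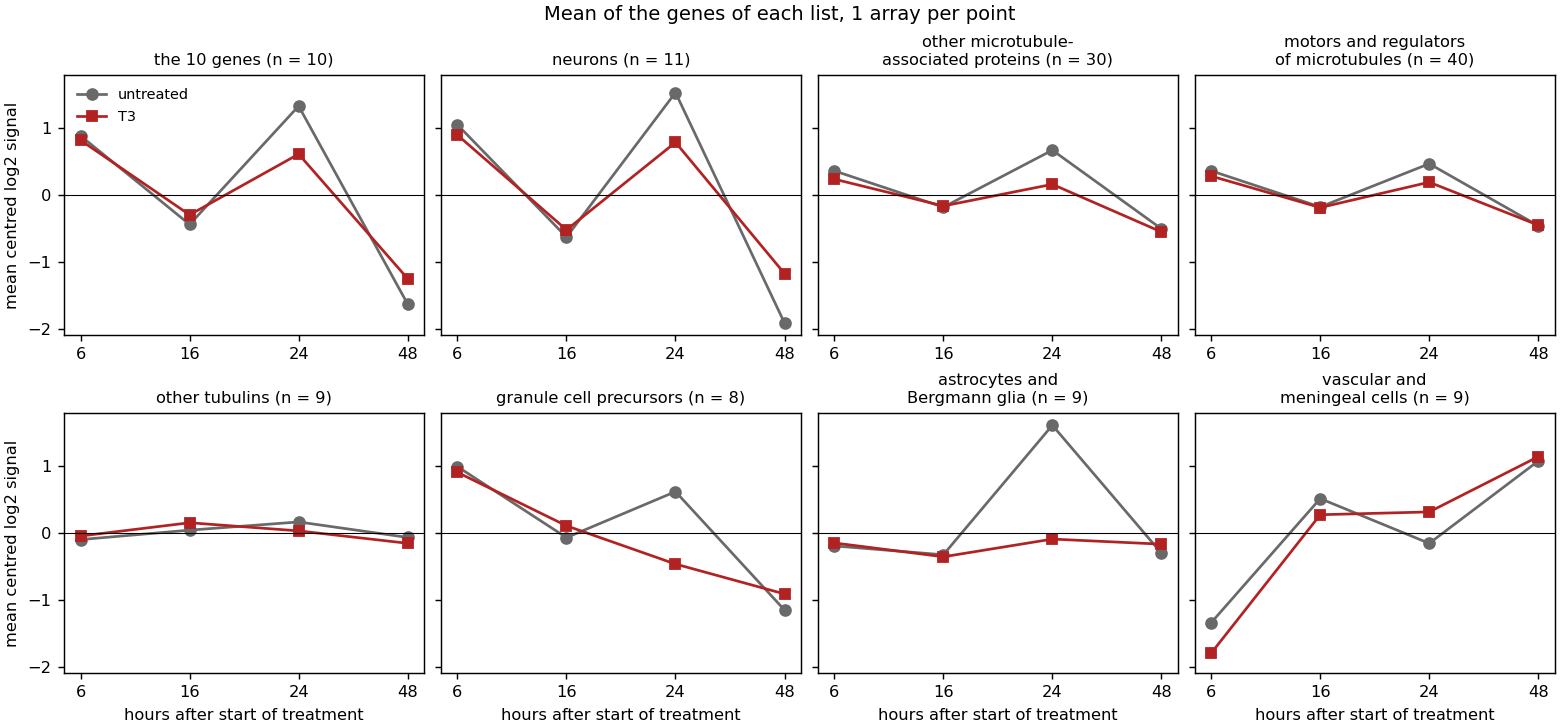
Mean centred log2 signal of the 10 genes and of 7 lists of related or marker genes (n = genes above the threshold) against the hours, with 1 array per point, circles for untreated and squares for T3 cultures. The 10 genes and the neuronal markers share a zigzag with its peak at 24 h without T3 (1.33 and 1.53). Other microtubule-associated proteins and motors and regulators follow it over a smaller range, with peaks of 0.67 and 0.46 on the same array. The astrocyte and Bergmann glia markers stand out on that array alone (1.61).

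The genes most like the 10 over all arrays were found by Pearson's r with their mean, among 10184 other genes and over 8 arrays from 4 time points. The first 5 were Snx27 (r = 0.998), Lonrf2 (0.997), Fut9 (0.997), Synrg (0.996) and Sv2b (0.996). Snx27 is a sorting nexin of endosomes, and it read 150.3, 116, 169 and 86.4 without T3 and 148, 118, 141 and 94.3 with it. Sv2b is a glycoprotein of synaptic vesicles. It read 204, 41.4, 289 and 8.1 in untreated cultures and 179.8, 43.1, 111 and 16.3 in treated ones. Both were highest in the untreated 24 h culture and lowest in the untreated 48 h culture, as the mean of the 10 genes was.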

How the data were processed

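Total RNA was amplified by the authors and hybridized to Affymetrix Mouse Genome 430 2.0 arrays, 1 for each of 8 conditions. The deposited values are signal intensities on a linear scale, which the authors made with the tools GCOS and MAS 5 (from the submitters' processing notes) and scaled to the same trimmed mean on each array. Of 45101 rows 64 control probe-sets were left out, and columns of values left unused numbered 0. Groups came from the sample titles. The number of arrays limits the precision.

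A floor of 1 was set before log2 was taken. Probe-sets at or above the 60th percentile of mean log2 signal (4.95) were kept. Fits used R 4.3.3 with limma 3.58.1, a variance trend and Benjamini-Hochberg adjustment over 18015 probe-sets. The time point was a fixed block for T3 and a random block for the hours (correlation 0.569), and prior degrees of freedom were 4.44 and 3.78. On simulated arrays with known changes, the fits returned about the mean size of these changes. The simulated spread between time points was smaller than that of the 10 genes, so p-values were not checked for them. Folds of a single pair were counted at 2-fold without a test. Named genes are the 10 genes, the extremes at 24 h and passing genes of each list, the 5 most alike genes, and markers on which a result turns. Members and lists were chosen with earlier results of these data known. Marker examples (Snap25, Nefl, Aqp4, Slc1a3, Olig1, Gja1, Sox9, Pdgfra, Cspg4) were chosen after their values were seen. Alternatives comprised quantile normalization, median centring, 32 added to each signal, other filters, thresholds and probe-set summaries, no variance trend, other blocks, and each time point left out.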

Additional observations from a re-analysis of the deposited data

Results flagged for a closer look

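At 24 and 48 h the T3 differences of 3 stathmin probe-sets pointed in opposite directions, each by more than 1.6-fold. For the second probe-set of Stmn1 the log2 difference at 48 h minus that at 24 h was 2.67. For the brightest probe-set of Stmn2 it was 2.50 and for its second 1.55. With 1 pair of arrays at each time point these changes of direction were not tested.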

How the results depend on the processing

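The number of the 18 probe-sets called for T3, and for a T3 effect that changes with the hours, was 0 under each alternative. For the hours it was 5 with arrays taken as independent, 0 to 18 when a time point was left out (18 without 24 h), and 0 otherwise. Of all 18015 probe-sets 1542 fell with arrays taken as independent, 2566 without 24 h and 150 without 16 h. With quantile normalization 14 fell, with median centring 27 and with 32 added 33. It was 99 of 11260 with the 75th percentile filter, 2 of 45037 without a filter and 61 of 11765 by gene means. The other alternatives gave 0. For T3 2 of all probe-sets were called without 24 h, and 0 otherwise. Beyond 2-fold there were 1 at 6 h and 2 at 16 h without a filter. At 24 h a threshold of 1.6-fold gave 11 and one of 3-fold gave 3, in place of 6, and no filter gave 8 of 24. At 48 h, in place of 2, quantile normalization gave 1, 32 added to every signal 0, no filter 5, 1.6-fold 5 and 3-fold 0. Shares of folds over all probe-sets were counted only at 2-fold with the filter and scaling used above. The fold counts under these alternatives therefore cannot be set against a background. The mean of its probe-sets turned the T3 estimate of Map2 from -0.09 to 0.12. For Stmn2 the estimate of 0.01 became -0.0044 with quantile normalization and -0.027 with 32 added. Leaving out a time point turned T3 estimates of Map2 (-0.26 to 0.15), Mapt (-0.14 to 0.35), Tubb3 (-0.55 to 0.14), Dcx (-0.64 to 0.064), Stmn2 (-0.36 to 0.48) and Stmn3 (-0.27 to 0.17), and the slope of Mapt (-0.91 to 0.053, the last without 48 h). The cause was not tested. No analysis paired by replicate number was possible because each condition has 1 array, so pairs rest on the time point. Dim probe-sets near the threshold limit what can be read at 48 h.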
